A study of Ovis aries with 24 samples.

Results

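The ductus arteriosus of newborn lambs was compared with that of preterm fetal sheep, the widest span of age measured in this vessel. The comparison rests on 8 of the study's 24 single-colour arrays, chosen by their titles: 4 arrays of newborn ductus and 4 of preterm ductus. Another 4 arrays of near-term ductus served as the midpoint, which parts the total change into a leg before birth (near-term minus preterm) and a leg around birth (newborn minus near-term). The preterm fetuses were of 97 days of gestation (100 in the titles), the near-term fetuses of 136 days (140 in the titles) and the newborn lambs 12 hours old, with term at 145 days. Each group held 4 animals. Breed and sex are not given in the sources used here, no treatment of a group is given, and ewes and lambs were killed with an overdose of pentobarbital and phenytoin. No animal gave ductus at more than 1 age. The remaining 12 arrays are of the aorta at the same ages and enter the fit and 1 comparison, and that aorta is called ascending in one label and adjacent to the ductus in another.

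The ductus arteriosus is the fetal shunt between the pulmonary artery and the aorta. Before birth it is held open by low oxygen tension, by prostaglandin E2 acting through its receptors, and by nitric oxide. After birth oxygen rises, prostaglandin falls, the muscular wall contracts, and the inner wall is then remodelled, with inflammatory cells and growth factors taking part in many species, until the lumen is closed for good. Glucocorticoids, growth factors of the insulin-like and TGF-beta families and the makeup of the contractile apparatus change as the vessel matures before birth.

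All levels are log2 signal relative to the 75th percentile of the array, so 0 is a probe at that percentile, and a difference of 1 is a doubling. Of 15008 probes, the 13997 that read well above background on 4 or more of the 24 arrays were tested. Only 773 tested genes carry a name, and 1991 of the changed probes are unnamed. Calls are limma tests at a Benjamini-Hochberg adjusted p under 0.05 over all 13997 probes, errors after ± on a difference are standard errors of the fit, and other errors are SD with n = 4.

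The 3 ages lie on 3 slides, 1 slide an age, so age and slide cannot be told apart in the ductus. The smooth muscle genes CNN1 and MYLK and the actin gene ACTB were well above background on all 12 ductus arrays. The spike-in controls gave a detection limit above 1.5 on 2 preterm arrays (replicates 1 and 4) and 2 near-term arrays (replicates 1 and 3) and on 0 newborn arrays, and dim probes read higher on those 4. The 5414 tested probes that were not well above background on every one of the 24 arrays had a median total change of −0.67, with 0.79 before birth and −1.51 around it. For the 8583 probes well above background on all 24, these medians were −0.02, 0.05 and −0.07. Over all tested probes the median total change was −0.20, with 0.22 before birth and −0.31 around it, and quantile normalisation brought the first of these to −0.04. Preterm replicate 4 stood apart, since it was the lowest of its group by Dixon's test for 341 of 13896 probes (2.45%), against 0.439% to 0.633% for the other 3 preterm arrays. Without it, 1765 probes were called in the total change.

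In the total change 1030 probes rose and 1167 fell, together 2197 of 13997 (15.7%; 7.36% higher and 8.34% lower). Of the 773 named genes, 79 rose (10.2%) and 48 fell (6.21%), together 127 (16.4%). The counts of called members in each list below are to be read beside these shares. The 4 newborn arrays lay wholly above or below the 4 preterm arrays for 3203 probes (22.9%). The largest rises and falls named below were picked among genes without such overlap, so their lack of overlap adds no evidence. With only the arrays of low spike-in detection limit (2 preterm and 4 newborn in this comparison), all 79 and all 48 kept their direction, and 49 and 21 were still called. Here and below, the low-limit arrays are among those that gave the calls, so a kept direction is not an independent check.

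Among the named genes the largest rises were those of the cytokine IL6 and the chemokine CXCL8, while 2 unnamed probes rose further, by 8.90 and 8.41. IL6, an inflammatory cytokine, was not well above background on any preterm array, at −5.36, −5.91, −6.49 and −7.97, and read 0.44, −0.91, −0.55 and 0.61 in the newborn ductus. The near-term arrays read −5.59, −6.59, −4.75 and −6.19, of which 1 was well above background. The newborn level was at least 50.5-fold higher than the preterm one (means −0.10 ± 0.74 and −6.43 ± 1.12, adjusted p = 1.25e-07). With normexp background correction the difference was 2.87, the same in direction and still called. CXCL8, the chief chemokine that draws neutrophils, read −4.18, −4.65, −4.58 and −4.21 in preterm ductus, −3.44, −4.22, −3.99 and −3.45 in near-term ductus and 0.76, 0.47, 0.40 and 1.10 in newborn ductus. The preterm and near-term ranges overlap, and every newborn array is more than 3 log2 units above both. Its total change was 5.09 ± 0.32, 34-fold (adjusted p = 2.87e-09), of which 0.63 lay before birth and 4.46 around it.

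The secreted pattern-recognition protein PTX3 read −2.59, −3.28, −2.80 and −3.13 in preterm and 0.62, 0.58, 0.94 and 1.52 in newborn ductus, a 14.6-fold rise (3.87 ± 0.29, adjusted p = 2.86e-08). CHI3L1, a chitinase-like glycoprotein made by activated macrophages and vascular cells, rose 17.6-fold, from −0.58, −1.17, −1.21 and −1.59 to 3.64, 1.58, 2.39 and 4.38 (4.14 ± 0.42, adjusted p = 1.04e-06). The 4 newborn arrays were spread widely for CHI3L1, but the lowest of them was above the highest fetal one. SELP, the adhesion receptor P-selectin of endothelium and platelets, rose 12.7-fold, from −4.26, −4.18, −4.5 and −4.04 to −0.12, −1.97, −0.11 and −0.12 (3.67 ± 0.38, adjusted p = 1.4e-06), with newborn replicate 2 below the other 3. ICAM1, the endothelial ligand of leukocyte integrins, rose 5.8-fold (2.54 ± 0.39, adjusted p = 0.00012). NFKBIA, the inhibitor that NF-kappaB induces to limit itself, rose 5.48-fold (2.46 ± 0.30, adjusted p = 1.02e-05).

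Of the 30 measured members of a list of inflammatory cytokines, adhesion and innate recognition genes, 18 rose and 0 fell (60% beside 15.7% of all probes). The median of the 30 was 1.66, against −0.20 over all probes. The same count was 12 with normexp, 16 with the low-limit arrays and 16 to 18 under the other alternatives, leave-outs included. The other called members were IL1RN, TNF, IRF1, C3, TNFRSF11B, CD14, IL1B, IL18, TLR4, TLR2 and IL10, at 1.0 to 3.12. The call for IL1RN was lost without preterm replicate 2 or 4 or newborn replicate 1, 3 or 4 (adjusted p up to 0.103). Among them CD14, the co-receptor for bacterial lipopolysaccharide, rose from −1.85, −1.70, −1.52 and −1.99 to 0.23, 0.01, −0.17 and 0.06 (1.80 ± 0.21, adjusted p = 4.85e-06). TNF read −4.25, −6.47, −8.13 and −5.34 in preterm ductus, with 2 of the 4 arrays well above background, and −2.80, −3.70, −3.36 and −3.05 in newborn ductus (2.82 ± 0.73, adjusted p = 0.0114), while a second, dimmer probe gave −1.34 and was not called. TNF lost its call with normexp (0.65, adjusted p = 0.359), as did IL1RN, IL1B, TLR4, TLR2 and IL10. Members that were not called in the main setting include CXCL1 at 0.08, CXCL10 at −1.24 and IL1A at 0.45. The list's own summed linear level ran from 9.27 to 14.7 over the preterm arrays, from 12.7 to 17.4 over the near-term arrays and from 30.1 to 57.3 over the newborn arrays. Before birth 0 of the 30 were called, beside 0.314% of all probes, and their median change was 0.66, against 0.22 over all probes. Around birth 12 of the 30 rose, beside 4.37% of all probes, and the medians were 0.84 and −0.31.

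Of the prostanoid genes the cyclooxygenase PTGS2 rose the most. PTGS2, the inducible isoform, which makes the precursor of prostaglandin E2, read −1.95, −2.36, −1.81 and −1.40 in preterm ductus, −1.58, −1.59, −2.25 and −1.5 in near-term ductus and 2.29, 1.56, 1.74 and 2.11 in newborn ductus. The newborn arrays stand clear of the 8 fetal ones, which overlap. The rise was 14-fold (3.80 ± 0.30, adjusted p = 5.28e-08), with 0.15 before birth and 3.66 around it, and a much dimmer second probe gave −1.11 and was not called. PTGS1, the constitutive isoform, changed by −0.34 ± 0.21 (adjusted p = 0.301). SLCO2A1, the transporter that takes prostaglandins up for breakdown, rose from −2.33, −2.46, −2.58 and −2.23 to −1.03, −1.43, −1.55 and −1.11 (1.12 ± 0.33, adjusted p = 0.0264). That call was lost when preterm replicate 2 or 3 or newborn replicate 1 or 4 was left out (adjusted p up to 0.0775).

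The prostaglandin E2 receptor genes, through which the fetal ductus is relaxed, were dim. PTGER4 read −3.0, −6.23, −5.21 and −3.87 in preterm ductus and −7.08, −5.95, −6.36 and −6.76 in newborn ductus, where 0 arrays were well above background. Its 2 brightest preterm arrays, replicates 1 and 4, are those with the high detection limit, and the difference was not called (−1.96 ± 1.16, adjusted p = 0.294). PTGER2 followed the same arrays, at −3.72, −8.16, −7.99 and −4.26 and −6.55, −7.99, −7.62 and −7.49 (−1.38 ± 1.36, adjusted p = 0.531), and PTGER3 changed by 0.02 ± 0.68. Of the 9 measured members of the prostanoid list, 2 rose and 0 fell, 22.2% of the list beside 15.7% of all probes.

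Immediate early genes, the transcription factors and feedback regulators that cells switch on within minutes of a stimulus, also rose. JUNB, a subunit of AP-1, read −1.59, −1.77, −1.95 and −1.46 in preterm, −1.19, −2.50, −0.71 and −0.69 in near-term and 2.83, 2.11, 2.47 and 2.22 in newborn ductus. All newborn arrays are above all fetal arrays, and the total change was 4.10 ± 0.41, 17.1-fold (adjusted p = 1.04e-06). CEBPB, a transcription factor of acute-phase and inflammatory genes, rose 6.03-fold, from −2.97, −3.52, −2.71 and −2.09 to −0.05, −0.63, −0.17 and −0.07 (2.59 ± 0.33, adjusted p = 1.47e-05). ZFP36, which speeds the decay of cytokine mRNA, rose 3.84-fold (1.94 ± 0.29, adjusted p = 0.000111), and a dimmer probe of it gave 4.48. CREM, a cyclic-AMP responsive factor, rose 1.94-fold, from −0.95, −1.38, −0.92 and −1.22 to −0.11, −0.03, −0.18 and −0.34 (adjusted p = 0.000139). RCAN1, an inhibitor of calcineurin, rose 3.28-fold (1.71 ± 0.36, adjusted p = 0.00288), with preterm replicate 2 missing because its spot was an outlier. Of 10 measured members 7 rose and 0 fell (70% beside 15.7% of all probes, median 1.49), among them EGR1 at 1.27 and FOS at 2.14. FOS read −4.09, −1.0, −2.87 and −2.42 in preterm and −1.88, −0.45, 0.79 and −0.29 in newborn ductus, and its call was lost without any 1 of preterm replicates 1, 3 and 4 or newborn replicates 2, 3 and 4 (adjusted p up to 0.113).

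**Figure D1:**
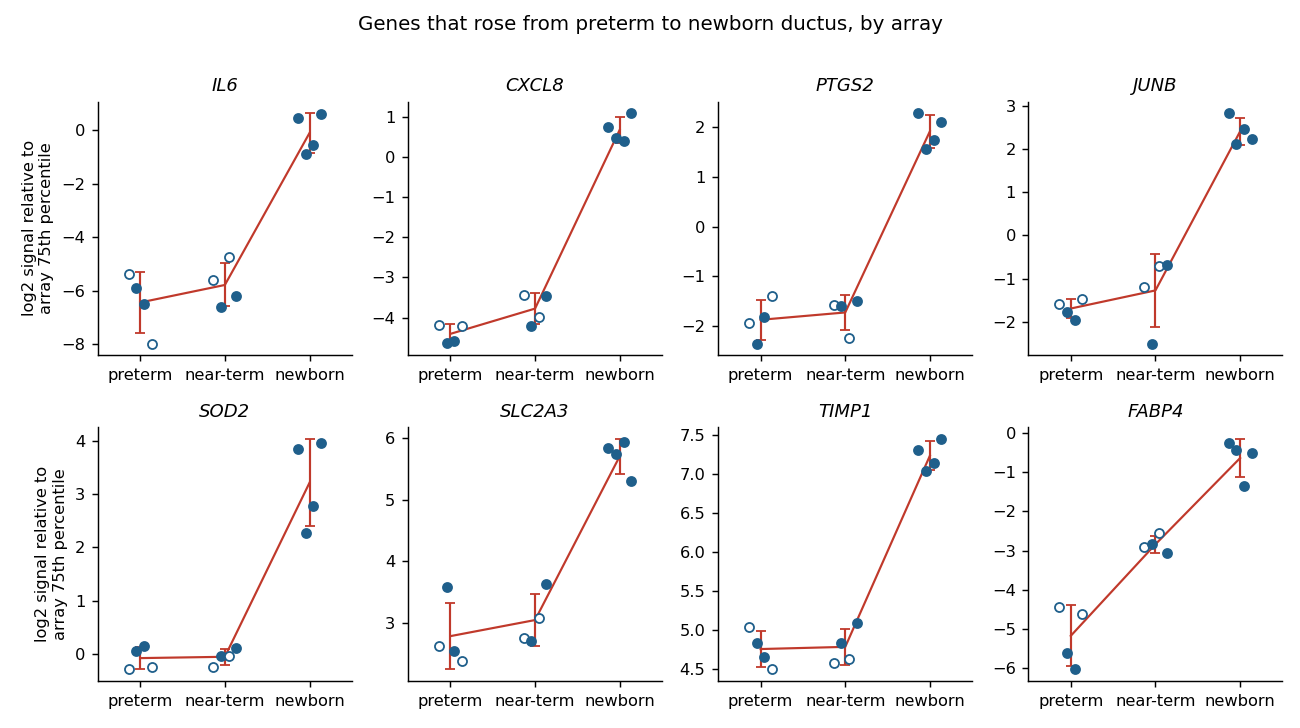
Level of 8 genes that rose, as log2 signal relative to the 75th percentile of the array, on each of the 12 ductus arrays. Open points are arrays with a spike-in detection limit above 1.5, the red line joins group means and bars are SD (n = 4). For 7 of the 8 genes the preterm and near-term arrays share a range and the newborn arrays stand above it, while FABP4 is higher at each age than at the one before.

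Genes of oxygen handling, glucose uptake and oxidant defence rose in part. SOD2, the mitochondrial superoxide dismutase that NF-kappaB induces, read −0.27, 0.06, 0.15 and −0.24 in preterm, −0.24, −0.04, −0.04 and 0.12 in near-term and 3.85, 2.27, 2.77 and 3.95 in newborn ductus, a 9.77-fold rise (3.29 ± 0.28, adjusted p = 1.19e-07). The fetal arrays all lie within 1 log2 unit, and by this probe 0.751% of the total change lay before birth. A second, slightly dimmer SOD2 probe rose by 3.70, with 0.53 before birth and 3.17 around it. SLC2A3, a high-affinity glucose transporter, rose 7.57-fold, from 2.63, 3.58, 2.55 and 2.38 to 5.84, 5.73, 5.94 and 5.30 (2.92 ± 0.29, adjusted p = 8.45e-07). VEGFA, the endothelial growth factor that hypoxia induces, read −4.0, −4.38, −3.01 and −4.01 in preterm, −2.81, −3.62, −2.78 and −3.12 in near-term and 0.03, −1.95, −0.80 and −0.83 in newborn ductus (2.97 ± 0.72, 7.81-fold, adjusted p = 0.00746), and neither leg alone was called. HIF1A, the oxygen-regulated transcription factor, changed by 1.90 ± 0.70 and was not called (adjusted p = 0.0702), although its 4 newborn arrays, at −3.86 to −3.22, lie above its preterm ones. Of 9 measured hypoxia genes 3 rose and 0 fell (33.3% beside 15.7% of all probes), the remaining one being LDHA at 0.90, whose call was lost without preterm replicate 1 or 2 or newborn replicate 1 (adjusted p up to 0.091).

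Of 8 measured glycolysis genes 1 rose and 1 fell, 25% of the list beside 15.7% of all probes. LDHA rose and PFKM, the muscle isoform of phosphofructokinase, fell, from −2.36, −3.17, −3.02 and −2.61 to −4.59, −4.68, −4.53 and −4.23 (−1.72 ± 0.37, adjusted p = 0.00301). MCL1, a survival factor of the BCL2 family, rose 5.14-fold, from −0.49, −0.43, −0.73 and −0.96 to 1.66, 2.21, 1.47 and 1.5 (2.36 ± 0.23, adjusted p = 6.47e-07). CPT1A, which admits long-chain fatty acids into mitochondria, rose 2.7-fold (1.43 ± 0.27, adjusted p = 0.00107). The CPT1A call was lost with normexp (0.52, adjusted p = 0.452), quantile normalisation and the low-limit arrays (adjusted p = 0.0955). PDXK, the kinase that activates vitamin B6, rose 4.7-fold, from −2.54, −2.88, −2.36 and −2.57 to 0.17, −0.35, −1.16 and −0.07 (adjusted p = 8.19e-05).

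FABP4, a lipid carrier of adipocytes, macrophages and capillary endothelium, took the other course. It read −4.43, −5.62, −6.03 and −4.61 in preterm ductus, −2.90, −2.84, −2.55 and −3.07 in near-term ductus and −0.25, −0.44, −1.35 and −0.51 in newborn ductus. The 3 groups do not overlap and lie in order of age. The total change was 4.53 ± 0.55, 23.2-fold (adjusted p = 1.02e-05), with 2.34 ± 0.55 before birth (adjusted p = 0.0718) and 2.2 ± 0.55 around it (adjusted p = 0.0145). The other 8 measured adipose markers were not called, PPARG at 0.18 and PLIN1 at −1.16 among them, and the summed level of the 9 was 0.508 to 1.35 in preterm and 1.08 to 2.32 in newborn ductus.

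The vessel wall's matrix list held 1 rise and 3 falls among 17 measured members, 23.5% of the list beside 15.7% of all probes. TIMP1, the inhibitor of matrix metalloproteinases, read 5.04, 4.84, 4.66 and 4.5 in preterm, 4.58, 4.84, 4.63 and 5.09 in near-term and 7.31, 7.04, 7.14 and 7.45 in newborn ductus, with the newborn arrays over 1 log2 unit above all others. It rose 5.57-fold (2.48 ± 0.19, adjusted p = 4.17e-08). MMP2, the gelatinase that TIMPs restrain, read 0.40, 0.29, 0.23 and 0.53 in preterm, −0.55, −0.73, −0.42 and −0.70 in near-term and −0.59, −0.17, −0.86 and −0.87 in newborn ductus. It fell by 0.99 on the log2 scale (−0.99 ± 0.15, adjusted p = 9.56e-05; 0.0505 with the low-limit arrays). FBLN1, a fibulin of elastic fibres, fell to a lesser degree (−0.74 ± 0.24, adjusted p = 0.0415, and up to 0.132 without preterm replicate 1 or 3 or newborn replicate 1, 3 or 4). MMP1, the interstitial collagenase, read −3.65, −8.41, −7.98 and −5.12 in preterm and −1.28, −4.96, −3.71 and −1.04 in newborn ductus, groups so spread that the difference of 3.54 ± 1.44 was not called (adjusted p = 0.108). The collagen genes COL1A1 (−0.54 ± 0.31) and COL3A1 (0.43 ± 0.49) were not called. COL3A1 was near 0 on 3 preterm arrays and at −3.11 on preterm replicate 4, without which its total change was −0.34 and still not called.

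The remaining fall of that list, HMMR, is a receptor for hyaluronan that also serves the mitotic spindle, and it is described here with the cell-cycle genes. HMMR read −1.01, −0.70, −1.24 and −0.61 in preterm, −1.53, −1.07, −1.10 and −1.15 in near-term and −3.05, −3.63, −3.78 and −2.88 in newborn ductus (−2.45 ± 0.28, 5.45-fold lower, adjusted p = 4.51e-06). ASPM, which organises the spindle poles of dividing cells, fell from −1.86, −1.39, −1.42 and −1.23 to −4.38, −5.16, −5.33 and −3.83, through −2.83, −1.76, −2.16 and −2.71 near term (−3.20 ± 0.52, 9.19-fold lower, adjusted p = 0.00024). TYMS, which makes thymidylate for DNA synthesis, fell 5.72-fold, from 0.51, 0.40, 0.16 and 0.00 to −1.82, −3.0, −2.86 and −1.30 (−2.52 ± 0.38, adjusted p = 0.000109). Newborn and preterm arrays do not overlap for any of these 3, which the rule that named them required, and 22.9% of all probes do not overlap. PCNA, the sliding clamp of DNA polymerase, fell by 1.45 on the log2 scale (adjusted p = 0.00131) and H2AZ1, a histone variant, by 0.90 (adjusted p = 0.0164). The call for H2AZ1 was lost without preterm replicate 2 or newborn replicate 2 (adjusted p up to 0.0639). Of 5 measured members of the proliferation list 3 fell and 0 rose (60% beside 15.7% of all probes), and the cell-cycle inhibitor CDKN1B, at 0.94 ± 0.41, was not called.

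In the list of insulin-like growth factor and growth hormone genes, 1 of 14 members rose and 2 fell, 21.4% of the list beside 15.7% of all probes. IGFBP2, a fetal binding protein of insulin-like growth factors, read 4.26, 3.68, 4.15 and 4.08 in preterm, 2.59, 2.96, 2.67 and 3.18 in near-term and 2.37, 1.35, 1.29 and 1.98 in newborn ductus, 3 groups that do not overlap (−2.29 ± 0.26, 4.91-fold lower, adjusted p = 3.56e-06). IGF2, the chief fetal growth factor of that family, read 6.41, 6.27 and 6.07 on 3 preterm arrays and 4.91, 4.53, 4.91 and 4.79 on the newborn arrays, with outlier spots left out on preterm replicate 1 and near-term replicates 1 and 4 (−1.47 ± 0.28, 2.76-fold lower, adjusted p = 0.00274). A second, somewhat dimmer IGF2 probe gave −0.91 (adjusted p = 0.00279), with −0.96 before birth and 0.05 around it. The probe used gave −0.92 and −0.54 in these legs. IGFBP3, the main carrier of these factors in blood, rose 5.09-fold, from −0.02, 0.67, 0.22 and −0.50 to 2.66, 2.06, 2.69 and 2.34 (2.35 ± 0.33, adjusted p = 4.53e-05). IGF1 (−0.67 ± 0.71) and IGF1R (0.73 ± 0.25) were not called.

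FZD2, a Wnt receptor, fell 2.87-fold, from 2.02, 1.78, 2.09 and 1.56 to 0.65, 0.48, 0.05 and 0.18 (−1.52 ± 0.31, adjusted p = 0.00208). WNT5A, a ligand that can act on such receptors, fell by 1.44 on the log2 scale (adjusted p = 0.0119, and 0.0521 without newborn replicate 1). In the TGF-beta, BMP, activin and Notch list, 1 of 31 members rose and 4 fell, 16.1% of the list beside 15.7% of all probes. TGFBR2, the ligand-binding TGF-beta receptor, rose 3.24-fold, from −2.95, −3.08, −3.15 and −3.37 through −1.87, −2.64, −2.07 and −2.29 to −1.51, −1.11, −1.59 and −1.56 (1.69 ± 0.22, adjusted p = 1.77e-05). The 4 falls were INHBA (−0.71), JAG1 (−0.81), BMP6 (−1.04) and ACVR2B (−0.51), at adjusted p from 0.0209 to 0.0377. The calls for INHBA, JAG1 and BMP6 were each lost under leave-outs of 3 to 5 of the 8 arrays, with adjusted p up to 0.0631, 0.135 and 0.0935.

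**Figure D2:**
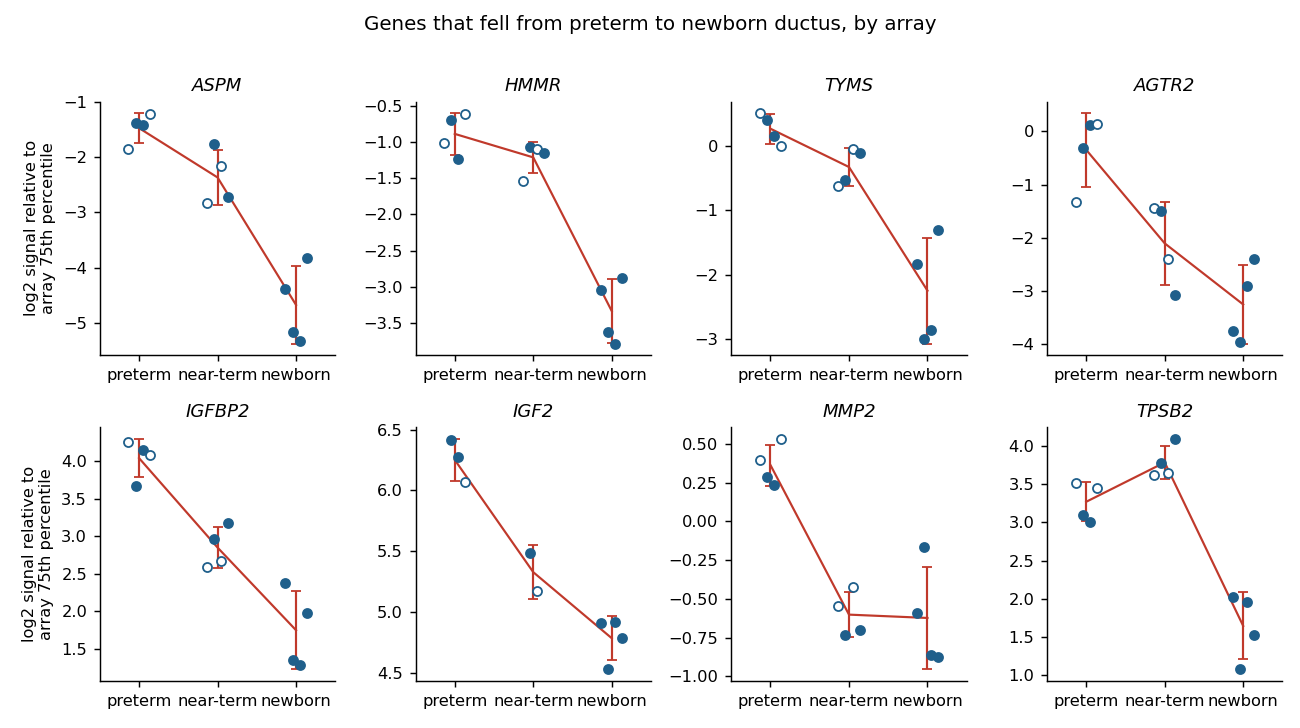
Level of 8 genes that fell, drawn as for the rises, on each of the 12 ductus arrays; bars are SD (n = 4, with 3 preterm and 2 near-term arrays for IGF2). ASPM, HMMR and TYMS drop mostly after the near-term point, MMP2 drops before birth and TPSB2 is highest near term. IGFBP2 and, by the probe drawn, IGF2 are lower at each age than at the one before, while a second IGF2 probe changed by 0.05 around birth.

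Among vasoactive genes AGTR2, the angiotensin receptor subtype that abounds in fetal tissue, fell the most. It read −1.33, −0.32, 0.12 and 0.14 in preterm, −1.45, −1.51, −2.40 and −3.07 in near-term and −3.75, −3.97, −2.91 and −2.39 in newborn ductus (−2.91 ± 0.56, 7.5-fold lower, adjusted p = 0.00116). A second probe gave −2.96. AGTR1, the contractile subtype, changed by −1.10 ± 0.37 and was not called (adjusted p = 0.0503), with ranges of 0.26 to 1.10 and −1.14 to 0.36. GUCY1B1, a subunit of the nitric oxide receptor guanylate cyclase, fell by 0.98 (adjusted p = 0.0161, and 0.0556 without preterm replicate 2). NOS3, the endothelial nitric oxide synthase, rose from −0.38, −0.52, −0.82 and −0.32 to −0.08, 1.26, 0.87 and 0.19 (1.07 ± 0.35, adjusted p = 0.0401). The NOS3 call was lost without any 1 preterm array or newborn replicate 2 or 3 (adjusted p up to 0.138). EDN1, the constrictor endothelin 1, changed by −0.10 ± 0.34, and its receptors EDNRA and EDNRB by −0.59 ± 0.87 and 0.55 ± 0.50, none of them called. The natriuretic peptide gene NPPC, at 2.05 ± 0.99, was not called either (adjusted p = 0.182). Of 20 measured members 1 rose and 2 fell, 15.0% of the list beside 15.7% of all probes.

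The contractile and actin list gave 0 calls among 8 members, by limma with adjustment over all probes. CNN1, the smooth muscle protein calponin, read 5.53, 5.70, 5.65 and 5.40 in preterm and 5.90, 6.35, 6.29 and 5.54 in newborn ductus (0.45 ± 0.20, adjusted p = 0.143). MYLK, the kinase that starts smooth muscle contraction, read 5.20, 5.19, 5.29 and 1.90 in preterm, 5.95, 5.92, 6.30 and 6.91 in near-term and 5.22, 5.32, 6.06 and 5.27 in newborn ductus (1.07 ± 0.57, adjusted p = 0.232). Without preterm replicate 4, which is far below the other 3, the total change of MYLK was 0.24. ACTB changed by −0.30 ± 0.19. CAV1, the coat protein of caveolae, was higher near term, at 1.11 to 1.43, than in preterm (0.21 to 0.87) or newborn ductus (−0.02 to 0.45), so its fall around birth (−1.05 ± 0.25, adjusted p = 0.00939) left no called total change.

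Steroid and retinoid genes held 1 rise and 1 fall among 16 members, 12.5% of the list beside 15.7% of all probes. HSD11B1, which regenerates active glucocorticoid within tissues, rose from −3.74, −2.74, −3.74 and −2.67 to −1.31, −2.73, −1.69 and −0.90, with overlapping arrays (1.57 ± 0.40, adjusted p = 0.0109). The progesterone receptor gene PGR was not well above background on any newborn array and was at least 2.18-fold lower there than in preterm ductus (means −6.50 and −4.5, adjusted p = 0.0256), a call lost without preterm replicate 1 or 2 or newborn replicate 2 or 4 (adjusted p up to 0.0951). The glucocorticoid receptor gene NR3C1 was too dim to read, well above background on 1 of 4 preterm and 0 of 4 newborn arrays.

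CRYAB, a small heat shock protein of muscle, rose 2.57-fold, from 4.04, 3.93, 3.84 and 3.79 to 5.66, 5.27, 5.43 and 4.68 (1.36 ± 0.27, adjusted p = 0.00165). DDIT3, a stress-induced transcription factor, rose 2.05-fold (adjusted p = 0.0131). The DDIT3 call was lost with normexp (0.31, adjusted p = 0.586), median centring and quantile normalisation, and a second probe at 0.86 was not called. The other 6 measured chaperone and unfolded protein genes were not called, HSPA5 at 0.16 ± 0.16 and HSPA1A at 0.48 ± 0.48 among them. Called members thus made 25% of that list beside 15.7% of all probes. Of 19 ribosomal protein genes 3 fell and 0 rose, 15.8% of the list beside 15.7% of all probes. While 38.3% of all probes lay above 0, 18 of the 19 lay below it, and their median was −0.29, next to −0.20 over all probes. MX1, an antiviral protein that interferon induces, rose by 1.38 (adjusted p = 0.0392), a call lost without preterm replicate 2, 3 or 4 or newborn replicate 1, 3 or 4 (adjusted p up to 0.122). With IRF1 it made 2 rises among 10 MHC and interferon genes, 20% of the list beside 15.7% of all probes.

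The remaining large falls were in genes of varied roles. PMCH, a brain neuropeptide precursor, fell 6.16-fold, from −2.23, −1.79, −1.93 and −1.70 to −4.41, −4.71, −4.91 and −4.10 (−2.62 ± 0.30, adjusted p = 4.68e-06), and PRND, the prion-like protein doppel, fell 3.95-fold, from −2.27, −2.32, −2.84 and −2.14 to −4.64, −4.46, −4.16 and −4.25 (−1.98 ± 0.33, adjusted p = 0.000288). CYM, the stomach protease chymosin, was well above background on 3 of 4 preterm and 0 of 4 newborn arrays and was at least 1.64-fold lower (means −7.40 and −4.94, adjusted p = 0.00118). GCG, the glucagon precursor, went from 4 arrays to 0 and was at least 2.16-fold lower (means −6.80 and −4.53, adjusted p = 0.0342), a call lost without any 1 of preterm replicates 1 to 3 or newborn replicates 1, 3 and 4 (adjusted p up to 0.0884). Both are near the floor of the arrays. LMNB1, a nuclear lamina protein, fell by 1.98 (adjusted p = 0.0157, and 0.0618 without newborn replicate 3).

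Of 8 patterning and neural crest genes, SNAI1, a repressor of epithelial genes, rose (0.96 ± 0.29, adjusted p = 0.0273), a call lost in 4 of 8 leave-outs (adjusted p up to 0.103). This was 12.5% of the list beside 15.7% of all probes. Only 2 of the 8 lay above 0, and the list median was −0.20. SOD2 and MCL1 were the 2 rises among 10 antioxidant and survival genes, 20% of the list beside 15.7% of all probes. By limma, 0 of 4 genes of mitochondrial respiration and 0 of 2 nerve markers were called. Of 80 genes checked here that were called in the total change, 40 kept the call under every alternative and leave-out. The rises among the 40 were IL6, CXCL8, CHI3L1, PTX3, SELP, ICAM1, NFKBIA, IRF1, C3, CD14, TNFRSF11B, IL18, PTGS2, JUNB, CEBPB, ZFP36, CREM, RCAN1, SOD2, SLC2A3, VEGFA, MCL1, CRYAB, TIMP1, FABP4, IGFBP3, TGFBR2 and PDXK. The falls were ASPM, HMMR, TYMS, AGTR2, IGFBP2, IGF2, MB, PRND, PMCH, TPSB2, PFKM and FZD2. The rest of the 80 lost the call under at least 1 alternative or leave-out. With the low-limit arrays alone 51 of the 80 were called, PCNA being lost at 0.0718.

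**Figure D3:**
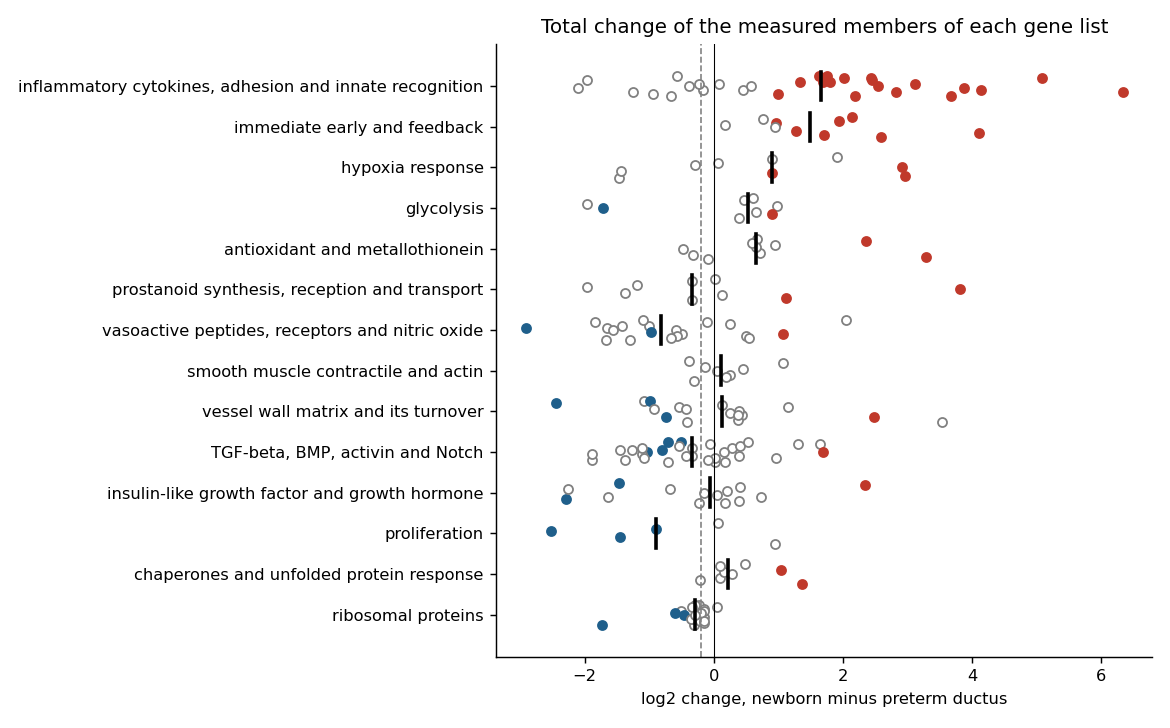
Total change (newborn minus preterm ductus, log2) of every measured member of 14 gene lists. Filled points passed the limma test (red higher, blue lower), open points did not, black bars are list medians and the dashed line is the median of all tested probes, −0.20; the inflammatory list holds 18 filled red points of 30 and the contractile list 0 of 8.

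Because each array holds RNA of the whole vessel, fewer cells of a type and less RNA per cell cannot be told apart. Of 6 macrophage markers 3 rose (50% beside 15.7% of all probes), CD14, the co-stimulatory ligand CD86 (1.55 ± 0.34) and the integrin ITGAM (1.47 ± 0.37). Only 4 of the 6 lay above 0. The summed linear level of the 6 was 0.746 to 1.19 on preterm, 0.845 to 1.96 on near-term and 1.43 to 2.07 on newborn arrays. The near-term and newborn ranges of that sum overlap. With normexp only CD14 was called, with CD86 at 0.77 (adjusted p = 0.188) and ITGAM at 0.27 (adjusted p = 0.708). ITGAM also lost its call with the low-limit arrays (adjusted p = 0.102). Dimmer second probes of CD86 (0.43) and ITGAM (0.87) were not called. Of 5 neutrophil markers 0 were called, and their summed level was 0.146 to 0.451 in preterm and 0.0544 to 0.254 in newborn ductus. Of 10 lymphocyte markers 1 rose (CXCR4, 0.94), a call lost in 6 of 8 leave-outs (all but newborn replicates 1 and 2, adjusted p up to 0.179), and 5 of the 10 were well above background on 0 newborn arrays. Of 7 endothelial markers 2 rose, SELP and NOS3, with a summed level between 1.16 and 1.61 in preterm and between 2.62 and 3.51 in newborn ductus, while TEK (0.76), TIE1 (0.98), KDR (−0.29) and FLT1 (−1.43) were not called. Of 4 fibroblast markers 1 rose, the complement gene C3 (2.18 ± 0.39), beside DCN at −0.43. The part of cell makeup in the rise of the inflammatory genes was not tested.

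TPSB2, a tryptase of mast cells, read 3.52, 3.1, 3.01 and 3.45 in preterm, 3.61, 3.78, 3.65 and 4.09 in near-term and 2.02, 1.08, 1.96 and 1.52 in newborn ductus. The near-term arrays are the highest and the newborn arrays lie below all fetal ones, a total change of −1.63 ± 0.27 (adjusted p = 0.000267). It was the 1 call among 6 mast cell and eosinophil markers, whose summed level, most of it TPSB2, was 9.07 to 12.7, 14.5 to 19.7 and 2.58 to 5.5 at the 3 ages. MB, the oxygen-binding protein myoglobin of striated muscle, fell 4.08-fold, from −1.46, −2.47, −2.41 and −3.30 to −4.51, −4.68, −4.35 and −4.23 (−2.03 ± 0.40, adjusted p = 0.00153), the 1 call among 7 markers of cardiac and skeletal muscle, of which 5 were well above background on 0 newborn arrays. Among 7 erythroid and plasma markers the apolipoprotein APOA1 fell (−1.81 ± 0.36) and the transferrin gene TF rose (0.87 ± 0.27), the latter lost without preterm replicate 3 or newborn replicate 2 or 4 (adjusted p up to 0.116), and beta-globin HBB changed by −1.04 ± 0.83.

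Most of the called change came after the near-term point. The leg before birth spans 39 days of gestation and had 44 calls of 13997 (0.314%), 22 higher and 22 lower (3 and 9 with median centring), and 2 of 773 named genes (0.259%). The leg around birth had 1515 calls (10.8%), 612 higher (4.37%) and 903 lower (6.45%), with 88 named genes (11.4%) among them, 51 of which rose (6.6%). The near-term arrays lay wholly above or below the preterm ones for 839 probes (5.99%), and wholly above or below the newborn ones for 3104 (22.2%). At an unadjusted p under 0.05 the counts were 1582 and 4726. Median centring turned the balance around birth to 624 higher and 404 lower, and quantile normalisation to 782 and 589, while normexp gave 693 and 4718. With only the low-limit arrays (2 preterm and 2 near-term) 0 probes were called before birth and 614 around it.

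Among the 1030 probes that rose over the whole span, the leg around birth was the larger in 739 (71.7%). Their median total change was 1.10, with 0.36 before birth and 0.73 around it, and the median probe had 31.5% of its change before birth (quartiles 10.7% and 53.1%). Among the 1167 that fell the leg around birth was the larger in 926 (79.3%), with medians of −0.99, −0.29 and −0.76 and 27.5% before birth (quartiles 7.58% and 45.2%). The legs share the near-term arrays, so an error in those arrays moves 1 leg up and the other down. Of the 1030 rises, 15 were called before birth and 477 around it, 5 in both and 543 in neither; of the 1167 falls the numbers were 20, 602, 9 and 554. For the named genes, the leg around birth was the larger in 59 of 79 rises and 36 of 48 falls.

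The difference of the legs was tested directly, as the change before birth minus the change around it. It was called for 104 probes (0.743%), 40 of them higher and 64 lower (0.457%), and for 12 named genes (1.55%). The balance depended on the setting: median centring gave 7 higher and 47 lower and quantile normalisation 35 and 93, while normexp gave 2377 and 254, array weights 5685 and 856 and the detection limit class as a covariate 101 and 81. The low-limit arrays gave 0. Of the 104, 64 were also called in the total change. Among rises, the leg around birth was the larger by this test for 43 and the leg before birth for 1, and among falls for 20 and 0. The 9 named rises whose change around birth exceeded that before it were IL6, CXCL8, JUNB, PTX3, PTGS2, SLC2A3, SOD2, TIMP1 and PDXK. They were not equally secure. In 12 leave-outs of 1 array, the call was lost in 11 for PDXK (adjusted p up to 0.152), in 9 for JUNB (up to 0.115), in 4 for SLC2A3 (up to 0.128) and in 1 for IL6 (without near-term replicate 2, 0.059), and in 0 for the other 5. For PDXK the call stood only without newborn replicate 3, and for SLC2A3 it was lost without near-term replicate 1, 2 or 3 or newborn replicate 1. Under the alternatives the call was lost in 6 of 14 for PDXK, 4 of 14 for SLC2A3 and 4 of 13 for IL6. It was lost in 3 of 14 for JUNB, PTX3 and SOD2, in 2 for PTGS2 and in 1 for CXCL8 and TIMP1. Of the 12 named genes with a called difference, 0 kept it under every alternative and leave-out. By the brightest probe of each, shares of the total that lay before birth were 12.4% for CXCL8, 3.9% for PTGS2, 8.94% for SLC2A3 and 1.13% for TIMP1. For IL6 none is given since both fetal groups were near background. These shares depend on the probe: a second TIMP1 probe rose by 2.52, with 0.16 before birth and 2.36 around it. TPSB2 was the 1 such fall: it changed by 0.51 ± 0.27 before birth and −2.14 ± 0.27 around it (adjusted p for the difference 0.00893). With the low-limit arrays none of these 10 differences was called (adjusted p from 0.0806 for IL6 to 0.204 for SLC2A3), while those of the 9 rises ran from −6.48 for IL6 to −2.06 for TIMP1, the same in direction.

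Only 2 named genes were called in the leg before birth, and some others had a large part of their change there without a call. MMP2 was 1 of the 2 named genes called in that leg (−0.96 ± 0.15, adjusted p = 0.00348), and its change around birth was −0.02 ± 0.15. The other was IGFBP2 (−1.19 ± 0.26, adjusted p = 0.0495), whose fall was shared about evenly with the leg around birth (−1.10 ± 0.26, adjusted p = 0.00853). IGFBP2 lost its call before birth in every leave-out of 1 of the 8 preterm and near-term arrays (adjusted p up to 0.197), and MMP2 in none. Both lost it in 5 of 14 alternatives: median centring, the 12 ductus arrays alone, the low-limit arrays and the groups of the contrast alone for each, with normexp for MMP2 and with no filter on dim probes for IGFBP2. AGTR2 had 60.5% of its fall before birth (−1.76 ± 0.56) and −1.15 ± 0.56 around it, with neither leg called. FABP4 and TGFBR2 had 51.5% and 54.1% of their rise before birth, but only their leg around birth was called. For TGFBR2 that call was lost in 3 of 8 leave-outs (adjusted p up to 0.0841). TGFB1, the TGF-beta 1 ligand, and PRLH, a prolactin-releasing peptide, had opposite signs in the legs, at −0.49 then 1.02 and 1.80 then −2.48 (adjusted p for the difference 0.0395 and 0.00445). Their change before birth was not called, nor was their total change (0.52 and −0.68). The difference for TGFB1 was lost in 10 of 12 leave-outs (all but preterm replicate 2 and newborn replicate 2, adjusted p up to 0.142) and in 5 of 14 alternatives, and that for PRLH in 0 leave-outs and 3 of 14 alternatives. In all, 6 probes were called in both legs in opposite directions, 0 of them named, and 436 probes were called around birth without a called total change.

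**Figure D4:**
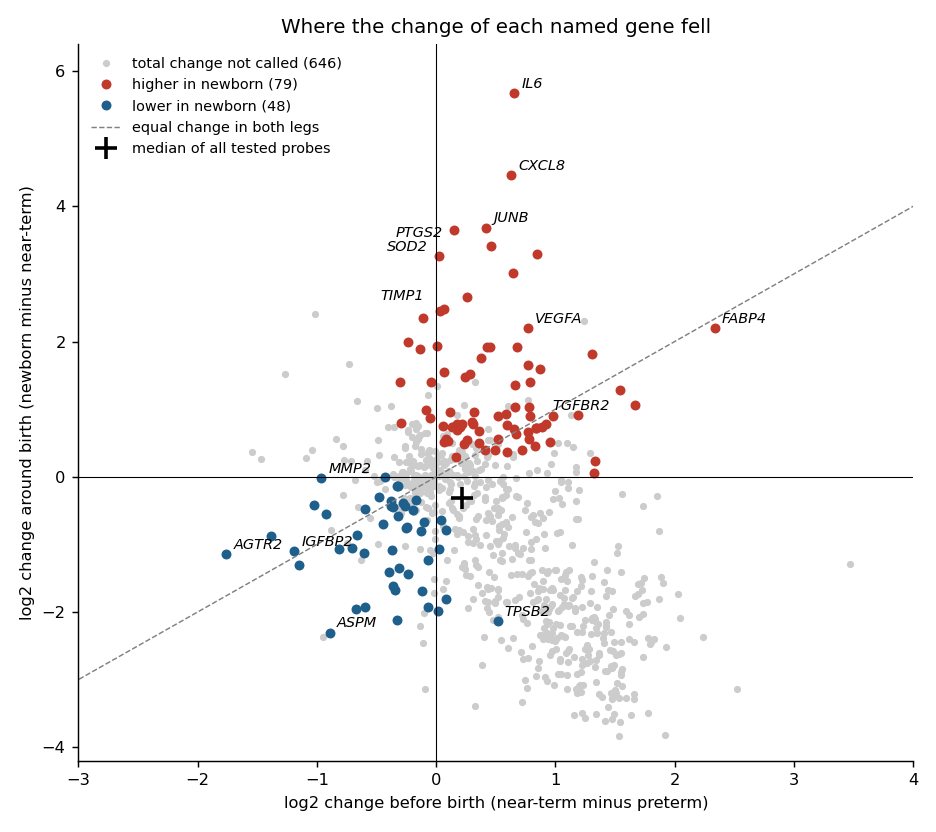
Change before birth (horizontal) against change around birth (vertical), log2, for the 773 named genes, coloured by the call of the total change. Above the dashed line the change around birth has the greater value, and the cross marks the medians of all tested probes. The 79 red and 48 blue genes passed the test of the total change, and most points at lower right are grey.

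The aorta gives the same span of age on the same 3 slides, so an effect of the slide that is equal for both vessels cancels in the difference of their total changes. That difference was called for 88 probes (0.629%), 70 with the greater value in the ductus and 18 (0.129%) in the aorta, and for 10 named genes (1.29%), all 10 with the greater value in the ductus. At an unadjusted p under 0.05 it was 1278 probes. Median centring gave 42 and 2. IL6 rose by 6.33 in the ductus and changed by 0.25 in the aorta (difference 6.08 ± 0.76, adjusted p = 0.000273). SLC2A3 rose by 2.92 in the ductus and changed by −0.79 in the aorta (difference 3.71 ± 0.41, adjusted p = 8.04e-05), and it kept this call under all alternatives and leave-outs run, while the other 9 named genes lost theirs under at least 1. PTX3 lost it in 7 of 13 alternatives and 14 of 16 leave-outs, all but preterm aorta replicate 1 and newborn aorta replicate 2 (adjusted p up to 0.121). NTN4 lost it in 5 of 13 alternatives and 10 of 16 leave-outs (up to 0.0691), and the remaining 7 lost it in 0 leave-outs and in 1 to 3 alternatives. PTGS2 rose by 3.80 against 0.53 (difference 3.28 ± 0.42, adjusted p = 0.000381). The differences for TIMP1 (1.91 ± 0.27), SOD2 (2.42 ± 0.39), CHI3L1 (3.31 ± 0.59), SELP (3.0 ± 0.54), MCL1 (1.69 ± 0.32), NTN4 (1.71 ± 0.36) and PTX3 (1.79 ± 0.41) had adjusted p from 0.00102 to 0.0481. NTN4 encodes the basement membrane protein netrin 4. The alternatives include the fit with the low-limit arrays, which leaves preterm aorta replicate 1 alone in its group, beside newborn aorta replicates 1 and 2. Its calls enter the counts above but rest on that 1 preterm aorta array. In that fit the differences of the 10 named genes ran from 1.154 for MCL1 to 5.496 for IL6, the same in direction.

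For the other genes described the difference between the vessels was not called. CXCL8 changed by 3.32 in the aorta (difference 1.77 ± 0.45, adjusted p = 0.088) and JUNB by 1.62 (2.48 ± 0.58, 0.0546). The cell-cycle genes ASPM and HMMR changed by −3.92 and −2.25 in the aorta, beside −3.20 and −2.45 in the ductus. AGTR2, IGFBP2 and IGF2 changed there by −3.57, −3.06 and −1.43, and FABP4 by 5.42. A p that misses the threshold does not show that the vessels moved alike: the standard errors of the difference were 0.45 for CXCL8, 0.74 for ASPM, 0.79 for AGTR2, 0.36 for IGFBP2 and 0.78 for FABP4.

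**Figure D5:**
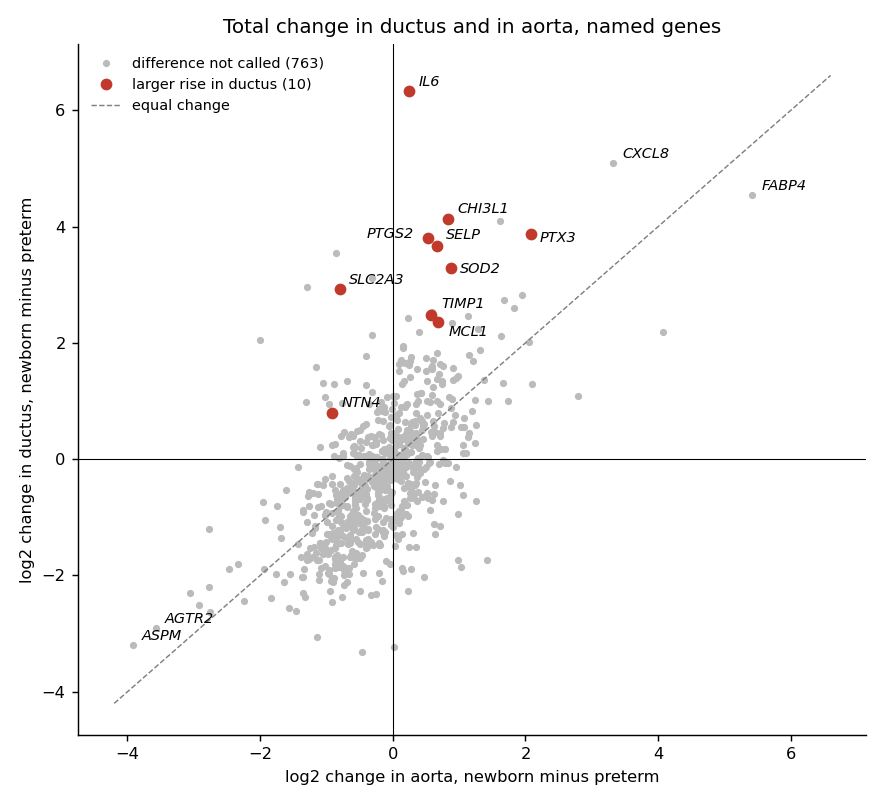
Total change in the aorta (horizontal) and in the ductus (vertical), log2, for the 773 named genes. The 10 red points are genes whose difference between the vessels was called, all above the dashed line of equal change; IL6 lies at 6.33 in the ductus and 0.25 in the aorta, and ASPM and AGTR2 lie low in both vessels.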

How the data were processed

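Total RNA of ductus and aorta was amplified from poly(A), carried the dye Cy3 and was read on Agilent arrays of 1 colour, per the labels' protocols. The deposited values are intensities (the processed signal, background-subtracted by Agilent Feature Extraction 9.5.3.1, per the file headers). The main setting was log2 of that intensity minus the 75th percentile of each array, with control spots and outlier flags left out and spots of 1 probe averaged. No spot was saturated on the 12 ductus arrays. Probes that read well above background on 4 or more of 24 arrays were tested with limma 3.58.1 (R 4.3.3) in 1 model of 6 groups of 4, with Benjamini-Hochberg adjustment at 0.05.

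A fold written as "at least" sets the bright group against the floor of the arrays, for genes above background on 0 arrays of the other group. Genes were named through RefSeq accessions, gene identifiers, array names and a table matched by hand. In total 1443 of 15008 probes carry a name, and a gene with several probes is given by the brightest.

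Genes were named in the text by a written rule: the 10 largest rises and falls without overlap, the strongest differences of legs and vessels, up to 4 members a list and a panel. Other list members, and CPT1A, PDXK, LMNB1, FZD2, WNT5A, PRLH and the genes listed to complete a count, were named after their values were seen. The members, the 29 lists and the tests were chosen with earlier results of these data known. In simulated data the total contrast recovered 29% of changes of log2 1 and 66% of those of log2 2, with 8 false calls among 103 over 13498 probes. The simulated noise was drawn independently for each probe and array, while dim probes of the real arrays shifted together. These rates therefore need not hold for the real data. The number of arrays limits the precision. Alternatives were normexp, median and quantile scaling, other filters and models, the low-limit arrays alone and leave-outs. Sequences are not used here, and some results, 1 of the lists among them, are not reported here.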

Additional observations from a re-analysis of the deposited data

Results flagged for a closer look

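The total change differed between ductus and aorta, by the interaction term of the limma fit, for 10 named genes, each with the greater value in the ductus. The differences were 6.08 for IL6, 3.71 for SLC2A3, 3.31 for CHI3L1, 3.28 for PTGS2, 3.0 for SELP, 2.42 for SOD2, 1.91 for TIMP1, 1.79 for PTX3, 1.71 for NTN4 and 1.69 for MCL1, in log2. With the low-limit arrays these differences ran from 1.154 for MCL1 to 5.496 for IL6. That fit leaves only 1 preterm aorta array, so no p is given for it.

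In 18 of 318 sets of 4 ductus arrays, 1 array stood apart from the other 3 by Dixon's test, where chance gives about 1 in 20. On preterm replicate 4 these were MYLK at 1.90 and NFKBIA at −0.31. On preterm replicate 2 they were ICAM1 at −2.69 and H2AZ1 at 3.44. HSPA1A on preterm replicate 3 was at 2.32, and the dim gene EDNRB on preterm replicate 1 at −4.02.

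Among near-term arrays, replicate 1 stood apart for HMMR at −1.53 and CNN1 at 5.73, replicate 2 for NOS3 at −1.01, and replicate 3 for PTGS2 at −2.25 and TNFRSF11B at 1.25. Among newborn arrays, replicate 2 stood apart for SELP at −1.97, TGFBR2 at −1.11, IL1B at −2.40 and COL3A1 at 0.0865. Newborn replicate 1 stood apart for TNFRSF11B at 2.08, replicate 3 for MYLK at 6.06 and replicate 4 for NR3C1 at −7.99, which is below background.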

How the results depend on the processing

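In 3535 of 4026 recomputed single-gene results the direction and the call were kept, 463 lost the call, 27 gained it and 1 reversed, IL10 around birth at −0.11 with normexp. The total change (2197 calls) gave 1254 with normexp, 1343 with median centring and 1216 with the low-limit arrays. Before birth (44) it was 28, 12 and 0 in the same settings (1586 at an unadjusted p under 0.05 for the last), 4 with the ductus arrays alone, 4968 with array weights, 143 and 148 with the share of probes above background or the detection limit class as a covariate, and 2 with the groups of the contrast alone. Around birth (1515) it was 5411 with normexp (693 higher, 4718 lower), 7667 with array weights (1426 higher, 6241 lower), 614 with the low-limit arrays and 871 with the groups of the contrast alone. The difference of the legs (104) gave 2631 with normexp, 54 with median centring, 28 with the ductus arrays alone, 6541 with array weights, 0 with the low-limit arrays (1753 unadjusted), 182 with the class covariate and 28 with the groups of the contrast alone. The difference of the vessels (88) gave 58, 44, 246, 173, 37, 139 and 41 with normexp, median centring, array weights, the share covariate, the low-limit arrays, the class covariate and the groups of the contrast alone. The share of rises with the larger leg around birth (71.7%) was 85.6% with median centring, 82.0% with quantile normalisation and 61.0% with array weights. The cause of these shifts was not tested.

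Leaving out 1 array gave 1611 to 1971 calls in the total change, 11 to 54 before birth, 921 to 2176 around birth, 26 to 101 for the legs and 36 to 116 for the vessels. Counts fell by over 1.5 times before birth without preterm replicate 2 (26), 3 (28) or 4 (14) or near-term replicate 1 (14) or 3 (11), and around birth without near-term replicate 1 (940) or 3 (921) or newborn replicate 1 (938). For the legs this was so without near-term replicate 1 (46), 2 (54) or 3 (26) or newborn replicate 1 (62), and for the vessels without 9 of 16 arrays in turn: preterm ductus 1 or 2, newborn ductus 1, 3 or 4, preterm aorta 2, 3 or 4 and newborn aorta 1 (36 to 58).

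The labels do not say whether a replicate number pairs ductus and aorta, and the numbers were not used as pairs: same-numbered arrays of a stage correlated at −0.59 to 0.82 in their deviations, and not every array correlated best with its own number. With the replicate number as a fixed block the calls were 2325 in total, 62 before birth, 1560 around birth, 122 for the legs and 89 for the vessels. With stage and number as a random block they were 2266, 51, 1519, 116 and 191. Dim signal limits IL6 in fetal ductus, the prostaglandin E2 receptors, CYM, GCG and NR3C1.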
